A study of Mus musculus with 9 samples.

Results

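Macrophages given the matrix protein tenascin C (TNC) with vehicle were compared with untreated macrophages. Every array labelled as either group was taken, 3 arrays each and 6 of the 9 in the series, and all 18193 genes with a named probe set were tested. The cells were bone marrow-derived macrophages, which are progenitors from mouse marrow turned into macrophages by macrophage colony-stimulating factor (M-CSF). Both groups came from BALB/c marrow, of mice that the study's methods give as 8 to 10 weeks old, and shared 7 days of growth in 10% serum and a night in 1% serum with M-CSF. TNC + vehicle cells then had 0.1% DMSO for 1 h and 2 µg/ml recombinant TNC for 6 h. No addition is named for untreated cells, so TNC and its vehicle cannot be told apart in this contrast. The labels call the arrays biological replicates without saying whether they came from separate mice, and the p-values therefore measure the spread between these arrays.

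TNC is a large glycoprotein of the extracellular matrix that is scarce in most adult tissue and laid down in wounds, inflamed tissue and tumours. It can engage Toll-like receptor 4 (TLR4), the receptor for bacterial lipopolysaccharide, and it also binds integrins. TLR4 signals through the adaptors MyD88 and TRIF to the transcription factors NF-kB, AP-1 and the interferon regulatory factors, and the cytokines, chemokines and interferon-stimulated genes that follow are its best known output in macrophages. The same stimulus is known to reset surface receptors, lipid and sugar metabolism, membrane traffic and the cytoskeleton, and the results below dwell on genes of those kinds.

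Values are log2 signals from the robust multiarray average (RMA), so a difference of 1 is a doubling, and a gene's level is compared between groups. Across genes, whose probes differ in response, levels serve only to sort genes into rough classes of brightness. Of 11 macrophage markers 10 had an untreated mean above 8. Adgre1, which encodes F4/80, was at 13.03 ± 0.04 (SD, n = 3) untreated and 13.15 ± 0.06 (n = 3) with TNC, and Csf1r, the M-CSF receptor, at 14.16 ± 0.01 and 14.15 ± 0.05. The dimmest was Cd163, at 7.31 ± 0.14 and 7.19 ± 0.17. The mean over the 11 markers was 11.70 to 11.76 in untreated and 11.94 to 12.04 in TNC + vehicle arrays. Their median log2 difference was -0.011, and the 2 that were called, Msr1 and Fcgr1, rose by 2.09 and 0.94. Collagen transcripts were high too, with Col1a2 at 13.22 to 13.37 untreated and 13.12 to 13.20 with TNC. TNC + vehicle replicate 1 stood apart on endothelial markers, 12 of 13 of which were higher there than in the other 2 arrays of its group, at a list mean of 7.41 against 6.83 and 6.81, and 6.67 to 6.68 untreated. Of the fibroblast markers 9 of 10 were also higher in that array, at a mean of 9.36 against 9.09 and 9.07, and 9.01 to 9.17 untreated. The part of these transcripts in the results was not tested. Without that array 714 genes were higher and 829 lower, and these held 662 and 713 of the calls with it.

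A gene was called at a Benjamini-Hochberg adjusted p under 0.05 in limma and a change of at least 1.5-fold. TNC + vehicle macrophages had 680 higher genes (3.74% of all tested) and 736 lower genes (4.05%), together 7.78%. The rises were larger than the falls: 339 genes rose by 2-fold or more (1.86%), 69 by 4-fold and 22 by 8-fold, while 179 fell by 2-fold or more (0.984%), 7 by 4-fold and 0 by 8-fold. Another 3700 genes passed the test with less than 1.5-fold. The 2 groups did not overlap in 42.3% of all genes, so a lack of overlap was common. Lists of cytokines, chemokines and interferon-responsive genes, 377 genes in all, held 132 of the rises and 17 of the falls, or 35.0% and 4.51% of their members. Outside them 548 genes rose and 719 fell, 3.08% and 4.04% of 17816 genes. Most of the response by number of genes, though not by share, therefore lay outside the lists by which macrophage activation is usually read. With a gene's probe sets averaged in place of the brightest, 578 genes were higher and 483 lower, and after cyclic loess 731 and 651, so the balance of rises and falls depended on the processing.

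Rises and falls started from different levels. Genes that rose had a median untreated signal of 8.64 and a median change of 1.00, and genes that fell had a median untreated signal of 9.61 and a median change of -0.78, against a median signal of 7.23 over all genes. Among the 5685 genes that read below 6.5 without TNC, close to the lowest signals, 34 rose and 0 fell (limma; 0.598% and 0%). Of 3371 genes from 9 to 11, 7.24% rose and 10.9% fell, and of 996 genes at 11 or above, 4.52% rose and 13.3% fell. A fall cannot be measured at the floor, and a list of well expressed genes is therefore to be read against these shares as well as against 3.74% and 4.05%.

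**Figure D1:**
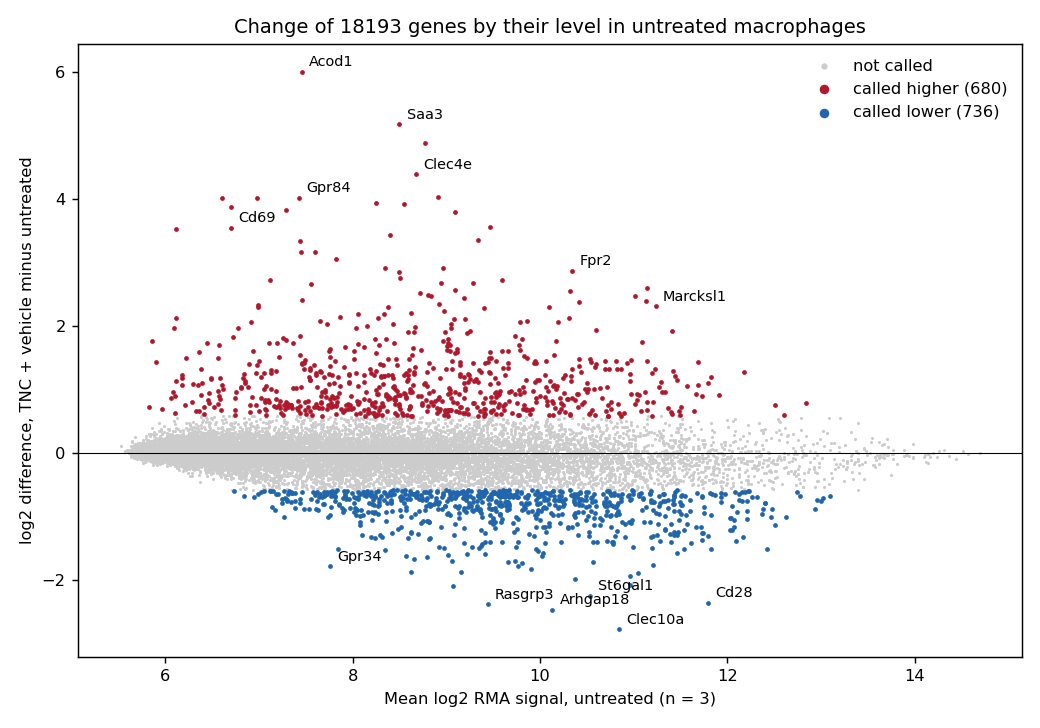
Log2 difference between TNC + vehicle and untreated macrophages (vertical axis) against the mean log2 RMA signal in 3 untreated arrays (horizontal axis) for 18193 genes. Red points are the 680 genes called higher and blue points the 736 called lower, and the falls begin at higher untreated signals than many of the rises.

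Outside the cytokine, chemokine and interferon lists, the largest rise was in Acod1, the enzyme that makes itaconate from a citric acid cycle intermediate. Its signal was 7.11, 7.76 and 7.52 in the untreated arrays and 13.44, 13.57 and 13.39 with TNC, 64.4-fold higher (log2 change 6.01 ± 0.13 SE; limma adjusted p = 2.15e-10). Saa3, a serum amyloid made by macrophages, read 8.30, 8.63 and 8.57 untreated and 13.69, 13.68 and 13.69 with TNC (5.19 ± 0.09; adjusted p = 2.11e-11). In both genes the groups lay far apart, and the TNC + vehicle arrays agreed more closely than the untreated ones.

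Several of the next rises were in receptors and secreted proteins of innate immunity. Cd69, a lectin of early leukocyte activation, rose from 6.52, 6.74 and 6.85 to 10.05, 10.50 and 10.22 (3.55 ± 0.11; adjusted p = 3.02e-09). Fpr2, a receptor for formylated peptides and serum amyloid, was already bright at 10.39, 10.31 and 10.32 and reached 12.93, 13.36 and 13.36 (2.87 ± 0.11; adjusted p = 8.65e-09). Cfb, a protease of the alternative complement pathway, read 6.88, 7.37 and 7.10 untreated and 9.44, 9.89 and 10.20 with TNC (2.72 ± 0.17; adjusted p = 2.97e-07). In each of these 3 genes the lowest TNC + vehicle array was replicate 1, and it still lay above every untreated array by more than the range within either group. Fgl2, a membrane-bound or secreted fibrinogen-like protein, rose by 2.35 ± 0.11, and Mmp14, a membrane-anchored matrix metalloproteinase, by 2.44 ± 0.08.

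Mitochondrial and nucleotide enzymes were also among the 20 largest rises. Gpd2, the mitochondrial glycerol 3-phosphate dehydrogenase that passes electrons from glycolysis to the respiratory chain, read 8.86, 8.82 and 8.83 untreated and 11.14, 11.43 and 11.37 with TNC (2.48 ± 0.08; adjusted p = 3.53e-09). Enpp4, an ectoenzyme that splits nucleotides, rose from 7.77, 8.00 and 7.84 to 9.96, 10.07 and 9.99 (2.14 ± 0.08; adjusted p = 6.41e-09). Tfec, a macrophage transcription factor of the MiT family, rose from 8.34, 8.23 and 8.26 to 10.28, 10.52 and 10.43 (2.14 ± 0.08; adjusted p = 7.1e-09). These 3, like the other leading genes, were chosen among the 42.3% of all genes whose groups do not overlap. Tma16, which is conserved and little studied, rose by 3.17 ± 0.08 on its brightest probe set and by 1.85 when its 3 probe sets were averaged.

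The falls were led by surface molecules and by regulators of small GTPases. Clec10a, a lectin for galactose-type sugars, read 10.81, 10.80 and 10.91 in untreated arrays and 7.48, 8.23 and 8.50 with TNC (log2 change -2.77 ± 0.19 SE; limma adjusted p = 8.29e-07). Arhgap18, a GTPase-activating protein, fell from 10.24, 10.18 and 9.98 to 7.81, 7.64 and 7.54 (-2.47 ± 0.09; adjusted p = 7.74e-09). Rasgrp3, a diacylglycerol-regulated activator of Ras and Rap, fell from 9.37, 9.40 and 9.56 to 7.27, 6.88 and 7.03 (-2.38 ± 0.10; adjusted p = 1.89e-08). The TNC + vehicle arrays of Clec10a spread more widely than those of the other genes, with replicate 1 lowest. Like the others, Clec10a was chosen among genes whose groups do not overlap.

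Cd300a, an inhibitory receptor for phosphatidylserine and phosphatidylethanolamine, fell from 11.18, 11.19 and 11.26 to 9.43, 9.37 and 9.52 (-1.77 ± 0.07; adjusted p = 1.15e-08; -1.07 over the mean of 2 probe sets). Hpgd, the enzyme that inactivates prostaglandins, fell from 9.64, 9.62 and 9.73 to 7.85, 8.00 and 7.96 (-1.72 ± 0.07; adjusted p = 1.71e-08). Pdcd4, an inhibitor of the translation helicase eIF4A, fell from 9.77, 9.83 and 9.62 to 8.02, 8.14 and 7.97 (-1.70 ± 0.08; adjusted p = 3.59e-08). The groups lay far apart in these 3 genes, and the arrays within each group close together. Rcbtb2 fell by 2.08 on its brightest probe set and by 0.83 over the mean of 5, and the ubiquitin ligase Rnf144b by 1.93 and by 1.13 over 3. Tcp11l2 and Ypel3, genes of little known function, had 1 probe set each and fell by 1.99 and 1.89.

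**Figure D2:**
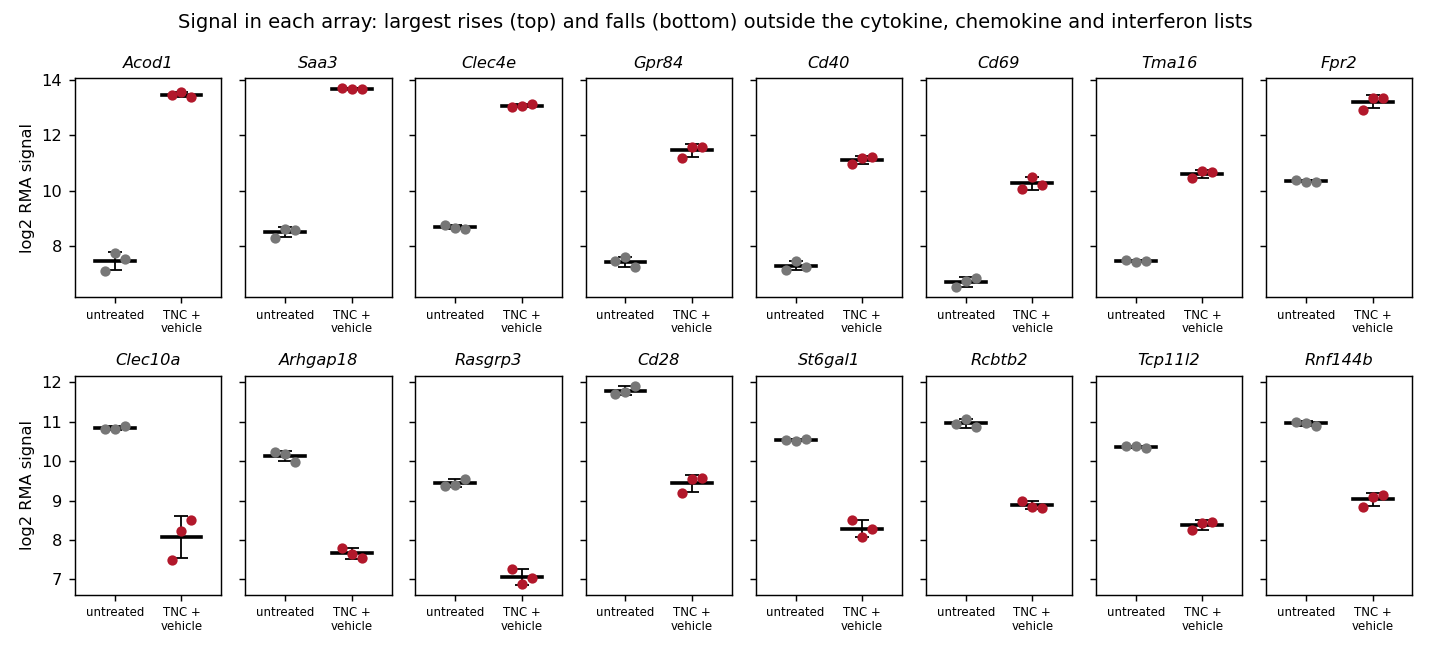
Log2 RMA signal in each array (points) for the 8 largest rises (top) and 8 largest falls (bottom) outside the cytokine, chemokine and interferon lists, with a wide line at the mean of each group and bars for the SD (n = 3). The 16 were chosen among genes whose untreated (grey) and TNC + vehicle (red) arrays do not overlap, which were 42.3% of all genes.

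The promoters of 3 of the genes with the largest changes are shown because they hold matches to sites of factors that TLR4 is known to act through. Those of Clec4e and Gpr84, also among the largest rises, held none of the motifs searched. A window of Rasgrp3, among the largest falls, held only a match to the PU.1 site GAGGAAG, and another window of Rasgrp3 held none. The sequences are the 250 bases before the RefSeq transcription start (GRCm38.p6), written 5′ to 3′ on the strand of the gene, and capitals mark matches to the short form of the NF-kB site (GGGA, any 4 bases, CC) in Acod1, to the interferon response element (GAAA, any 2 bases, GAAA) in Saa3, and to the AP-1 site (TGANTCA) and then the short NF-kB form in Arhgap18. Acod1 lies on the plus strand at chr14:103046762-103047011, Saa3 on the minus strand at chr7:46715677-46715926 and Arhgap18 on the plus strand at chr10:26772262-26772511.
Acod1: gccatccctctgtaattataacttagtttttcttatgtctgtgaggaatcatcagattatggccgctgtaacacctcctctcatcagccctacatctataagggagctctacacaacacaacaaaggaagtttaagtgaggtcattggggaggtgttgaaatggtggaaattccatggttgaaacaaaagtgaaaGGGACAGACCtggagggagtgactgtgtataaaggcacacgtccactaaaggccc
Saa3: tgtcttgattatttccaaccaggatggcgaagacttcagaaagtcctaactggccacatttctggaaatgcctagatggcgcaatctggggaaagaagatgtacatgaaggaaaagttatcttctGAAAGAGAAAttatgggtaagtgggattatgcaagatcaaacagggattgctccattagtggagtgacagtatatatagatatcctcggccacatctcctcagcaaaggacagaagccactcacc
Arhgap18: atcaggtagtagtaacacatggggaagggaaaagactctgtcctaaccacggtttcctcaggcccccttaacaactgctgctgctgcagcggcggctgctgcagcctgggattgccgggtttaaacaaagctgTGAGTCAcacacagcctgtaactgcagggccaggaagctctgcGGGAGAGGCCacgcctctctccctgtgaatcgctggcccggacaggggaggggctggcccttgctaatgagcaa
Each capital run is a match of letters and not a measured binding site.

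The same letters were counted on both strands in the RefSeq windows of 300 bases (250 before to 50 after the start) that 14367 of the 18193 genes had. The interferon response element was in 3.04% of the 18006 windows, in 31.8% of 107 windows of genes of the classic lists that rose by 2-fold or more, in 5.49% of 255 windows of other genes that rose as much, and in 2.84% of 176 windows of other genes that fell as much. The AP-1 site was in 6.35% of all windows and in 18.7%, 9.80% and 4.55% of those 3 groups. The short NF-kB form was common everywhere, in 4501 of the 18006 windows and 30.8%, 28.2% and 27.3% in the groups, and the stricter form (GGGA, any base, TTTCC), whose matches the short form also holds, was in 0.472%, 3.74%, 0.392% and 0.568%. The STAT site TTCNNNGAA was in 7.20%, 12.1%, 8.63% and 8.52%, and the PU.1 site GAGGAAG in 13.5%, 18.7%, 14.5% and 15.3%. The E-box CACGTG was in 8.74% of all windows and 2.80% of the classic rises, and in 11.4% and 11.9% of the other rises and falls. The sterol response element TCACNCCAC was in 1.21% of all windows and in 0%, 2.35% and 1.70% of the groups. Windows of 1 gene overlap, and the shares are a description of letters in these windows. The classic lists hold interferon-responsive genes by choice. Their members that did not rise were not counted apart, so the 31.8% cannot be tied to the rise itself.

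**Figure D3:**
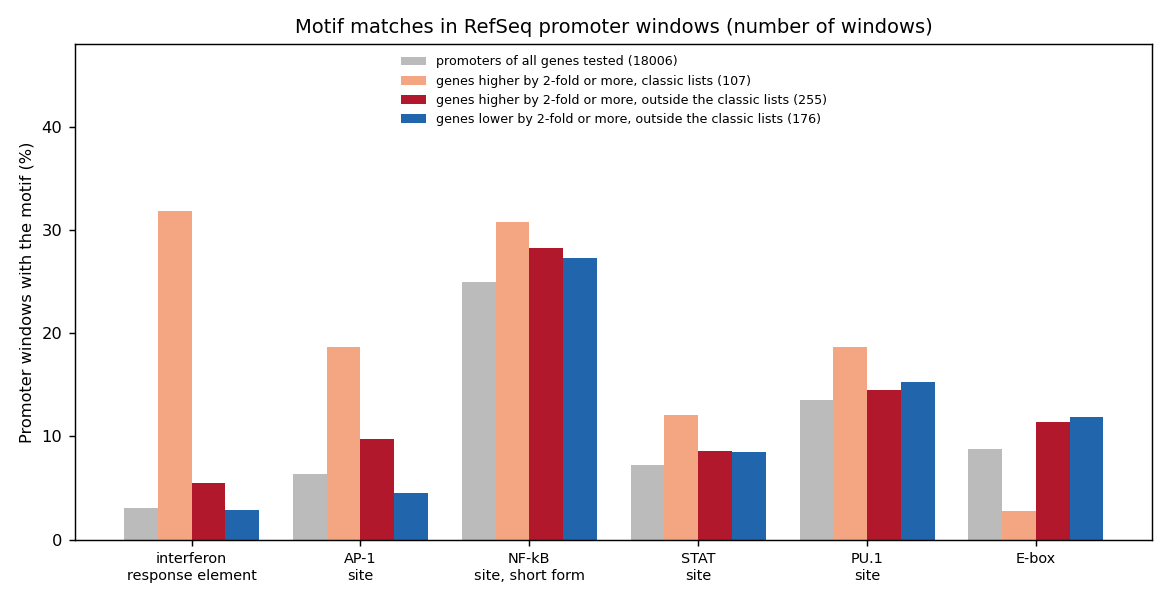
Share of RefSeq promoter windows that hold each of 6 motifs (vertical axis, percent), for all genes tested (grey), genes of the classic lists that rose by 2-fold or more (orange), other genes that rose by 2-fold or more (red) and other genes that fell by 2-fold or more (blue). The interferon response element stands at 31.8% in the classic rises, whose lists hold interferon-responsive genes by choice, and at 5.49% or below in the other groups.

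The genes were then read by function, through 42 lists of 21 to 1811 measured members that together held 5779 genes, 193 of the rises and 244 of the falls. A list is described by its counts and its median, beside 3.74% higher, 4.05% lower and a median of 0.006 over all genes, and no list was tested as a list. Up to 4 members with the largest change are named for each list, and any further member was chosen after its values were seen.

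**Figure D4:**
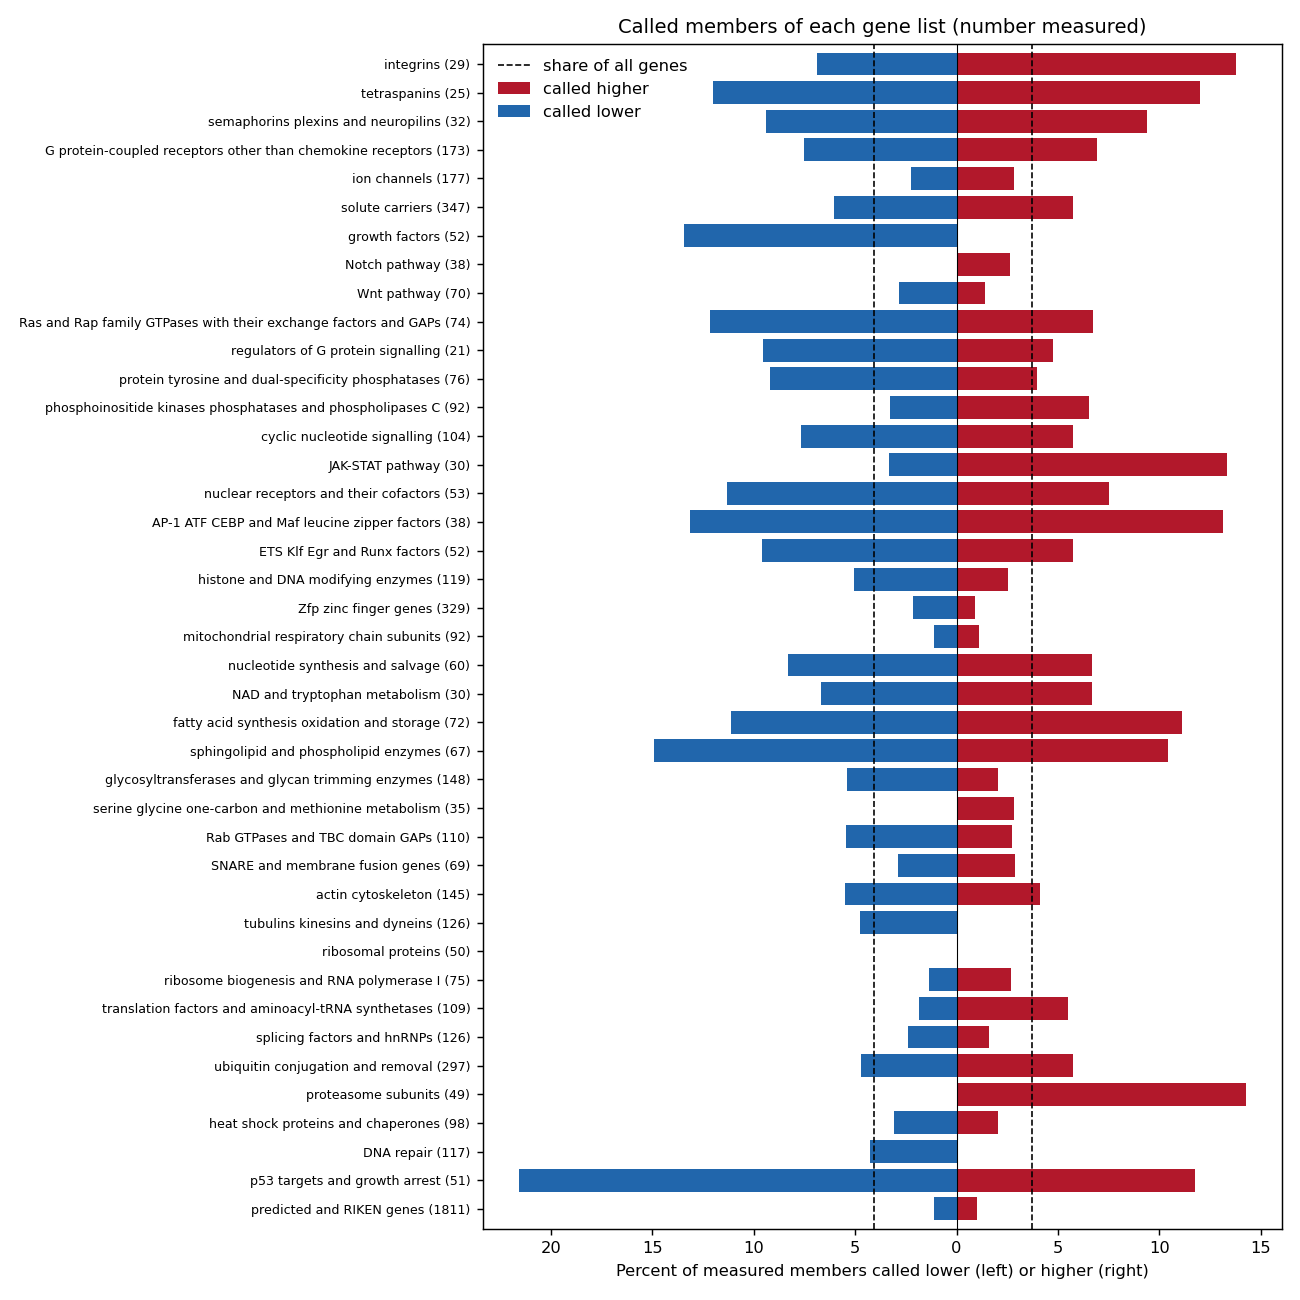
Percent of the measured members of each gene list shown called lower (blue, to the left) and higher (red, to the right) in TNC + vehicle against untreated macrophages, with the number measured in brackets. Dashed lines mark the shares of all genes, 4.05% lower and 3.74% higher. The growth arrest, sphingolipid and growth factor lists reach furthest to the left, and the proteasome and integrin lists furthest to the right.

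Receptors by which a macrophage senses its matrix changed in both directions. Of 29 integrins 4 rose and 2 fell (13.8% and 6.90%; list median 0.045). Itgb8, the integrin chain that activates latent TGF-beta, was near the floor at 6.08, 6.00 and 6.27 in untreated arrays and read 8.33, 8.26 and 8.14 with TNC (log2 change 2.12 ± 0.08 SE; limma adjusted p = 1.3e-08). Itgb5, a chain of a vitronectin receptor, fell from 11.58, 11.56 and 11.48 to 10.06, 9.96 and 10.04 (-1.52 ± 0.07; adjusted p = 2.9e-08). The 2 chains thus moved in opposite directions with narrow spread in each group. Itga6, of the laminin receptors, fell by 1.40 ± 0.14. Itgal, the LFA-1 chain that binds ICAM-1, read 9.40, 9.49 and 9.47 untreated and 10.14, 11.08 and 10.97 with TNC (1.28 ± 0.19; adjusted p = 0.000346), so that replicate 1 lay about midway between untreated and the other TNC + vehicle arrays, and the difference without it was 1.57. Itga5 and Itga1, chains of the fibronectin and collagen receptors, rose by 0.70 and 0.61. The SD (n = 3) with TNC was 0.07 in Itga5 but 0.44 in Itga1 (limma adjusted p = 0.0183). Without replicate 1 the list held 3 rises, and with averaged probe sets 2.

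Guidance receptors and tetraspanins, which organise receptors in the membrane, changed as often up as down. In 32 semaphorins, plexins and neuropilins 3 rose and 3 fell. Plexin C1 (Plxnc1) fell by 1.12 ± 0.09, and its ligand Sema7a rose by 1.01 ± 0.09. The neuropilins Nrp1 and Nrp2, co-receptors for semaphorins and VEGF, moved apart: Nrp1 fell from 11.27 ± 0.04 to 10.45 ± 0.14 and Nrp2 rose from 11.05 ± 0.04 to 11.97 ± 0.07 (means ± SD, n = 3; limma adjusted p = 1.07e-05 and 1.25e-06). The groups did not overlap in either gene, which held for 42.3% of all genes. Among 25 tetraspanins Tspan33, Tspan3 and Cd82 rose by 0.91, 0.75 and 0.69 and Tspan14, Tspan4 and Tspan13 fell by 0.68, 0.67 and 0.64. Averaging probe sets took Tspan33 to 0.48 and Cd82 to 0.46, below the fold threshold.

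G protein-coupled receptors other than those for chemokines had 12 of 173 members higher and 13 lower (6.94% and 7.51%; median 0.052). The 3 largest rises were in Gpr84, Fpr2 (2.87) and Hcar2. Gpr84, for medium-chain fatty acids, read 7.45, 7.60 and 7.24 untreated and 11.18, 11.59 and 11.59 with TNC, 16.3-fold higher (limma adjusted p = 1.96e-09). Hcar2, for nicotinic acid and the ketone body beta-hydroxybutyrate, rose from 7.12, 7.30 and 7.43 to 8.85, 9.23 and 9.14, 3.46-fold (adjusted p = 2.4e-07). Both had replicate 1 as the lowest TNC + vehicle array. Their groups did not overlap, which held for 42.3% of all genes.

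The falls included receptors for lipids. Gpr34, for lysophosphatidylserine, fell from 7.85, 7.84 and 7.59 to 6.03, 5.96 and 5.95, which is close to the floor of the arrays, so that its 3.44-fold fall may be understated (adjusted p = 3.58e-08). Lpar6, for lysophosphatidic acid, fell from 10.64, 10.47 and 10.58 to 8.77, 8.92 and 8.83, 3.30-fold (adjusted p = 2.14e-08). Cnr2, the peripheral cannabinoid receptor, read 9.15, 9.03 and 9.02 untreated and 7.77, 7.04 and 7.26 with TNC, 3.26-fold lower with a wide spread under TNC (adjusted p = 4.14e-06). Other receptors with lipid ligands went both ways. Gpr183, for oxysterols, fell by 1.61, the prostaglandin E2 receptors Ptger2 and Ptger3 by 1.01 and 0.85, and the sphingosine 1-phosphate receptor S1pr1 by 0.89, while the lysophosphatidic acid receptor Lpar1 rose by 1.22, the leukotriene receptor Cysltr1 by 0.86 and the prostacyclin receptor Ptgir by 0.71. Gpr155, a lysosomal cholesterol sensor, fell by 1.83 ± 0.07.

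**Figure D5:**
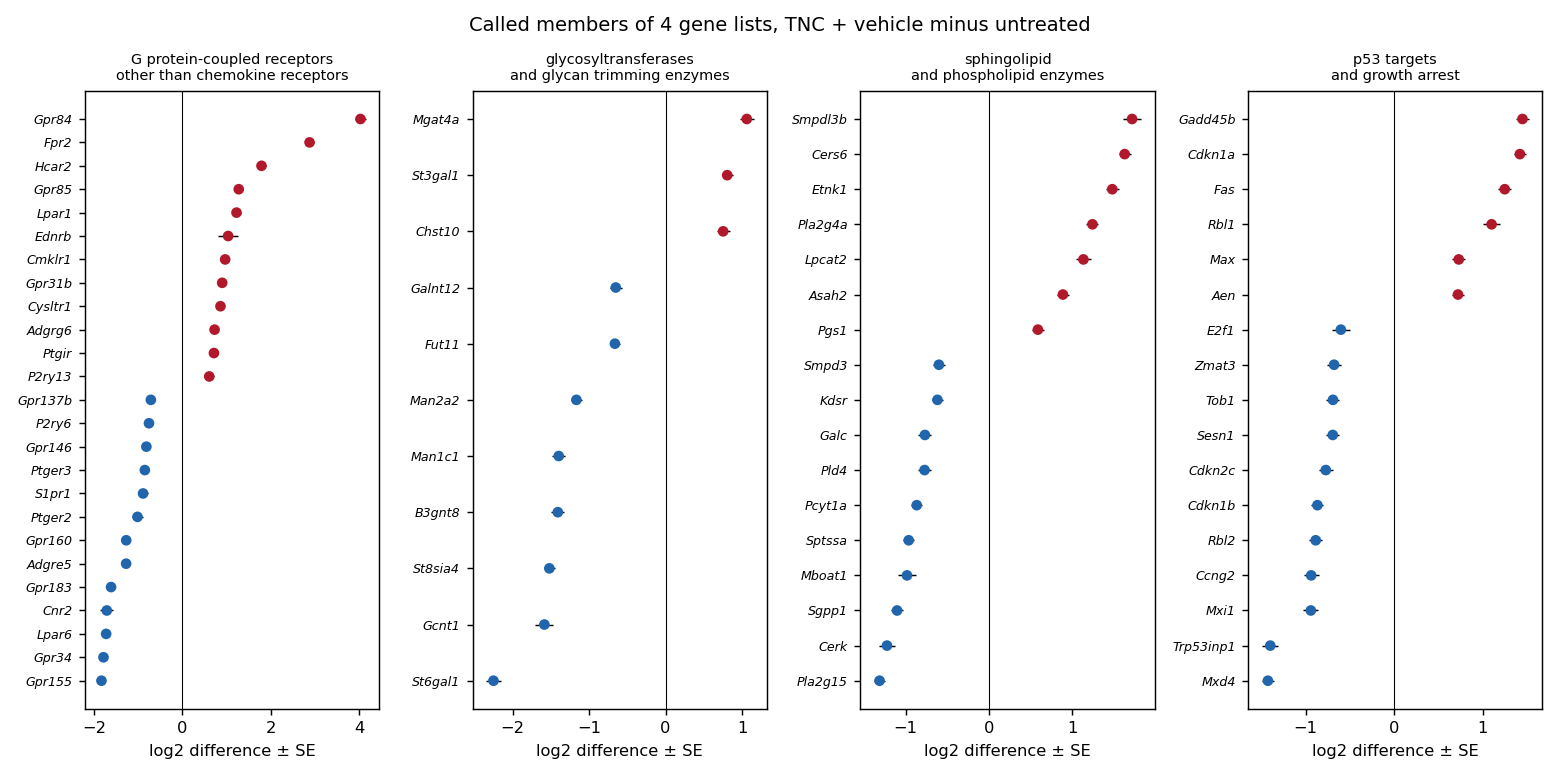
Log2 difference between TNC + vehicle and untreated macrophages (horizontal axes, points, with the SE from limma as bars) for every called member of 4 gene lists. The G protein-coupled receptors range from -1.83 (Gpr155) to 4.02 (Gpr84), and the growth arrest list has 11 members to the left of 0 and 6 to the right.

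Solute carriers, the largest family of membrane transporters, had 20 of 347 members higher and 21 lower (5.76% and 6.05%; 16 and 13 with averaged probe sets). Slc2a6, a sugar transporter of lysosomal membranes, rose from 9.35, 9.34 and 9.50 to 11.62, 11.75 and 11.67 (2.28 ± 0.07; limma adjusted p = 2.82e-09). Slc15a3, a lysosomal carrier of peptides and histidine, rose by 1.32 ± 0.08. Slc5a3, the sodium-driven myo-inositol carrier, fell from 11.46, 11.65 and 11.71 to 10.26, 10.13 and 10.17 (-1.42 ± 0.08; adjusted p = 1.59e-07). The groups did not overlap in Slc2a6 or Slc5a3, which held for 42.3% of all genes. Slc46a3, a lysosomal carrier, fell by 1.34 ± 0.09.

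Carriers of metals and amino acids within the family were chosen after their values were seen. The copper importers Slc31a1 and Slc31a2 both rose by 1.23. The iron importer Slc11a2 rose by 0.83 and the zinc and iron carrier Slc39a14 by 0.86, while the iron exporter Slc40a1 (ferroportin) fell by 0.84. The zinc carriers Slc30a1 and Slc30a6 rose by 0.81 and 0.60. Amino acid carriers went both ways. The cystine carrier Slc7a11 rose by 1.02 and the cationic amino acid carrier Slc7a2 by 1.10. Slc16a10 and Slc7a8 rose by 1.16 and 0.99, and the mitochondrial Slc25a12 and Slc25a22 by 1.06 and 0.66. The amino acid carriers Slc36a1, Slc38a1 and Slc43a2 fell by 0.81, 0.71 and 0.70. Glucose carriers were split, with Slc2a1 higher by 1.18 and Slc2a3 lower by 0.90.

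Ion channels had 5 of 177 members higher and 4 lower (4 and 2 with averaged probe sets). Clcn7, the chloride exchanger of lysosomes, rose by 1.34 ± 0.07, Mcoln2, a cation channel of recycling endosomes, by 1.10 ± 0.08, and Clic4, a chloride channel-like protein, by 1.07 ± 0.07. Kcnj10, an inward rectifier potassium channel, fell from 10.84, 10.76 and 10.73 to 9.09, 9.33 and 9.62 (-1.43 ± 0.11; limma adjusted p = 1.97e-06). The ATP-gated channel P2rx7 was lower by 0.67.

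Inside the cell, Ras and Rap regulators had 9 of 74 lower and 5 higher (12.2% and 6.76%; 39.2% of the list at 9 or above untreated). Here 2 related exchange factors moved in opposite directions: Rasgrp3 fell 5.21-fold, and Rasgrp1 rose from 6.51, 6.38 and 6.46, near the floor, to 8.11, 8.27 and 8.16 (1.73 ± 0.07; limma adjusted p = 1.97e-08). Rasgrp1 had 4 probe sets, whose mean differed by 0.68. Rassf3, of the Ras association family, fell by 1.57 ± 0.11, and Rgl1 and Ralgds, exchange factors for Ral, rose by 1.26 and 1.23. The heterotrimeric G protein brakes Rgs10 and Rgs2 fell by 1.25 and 1.08, with Rgs10 at 10.48, 10.49 and 10.48 in the TNC + vehicle arrays, and Rgs1 rose by 0.86. These were the 3 called of 21 in their family, and without TNC + vehicle replicate 3 there were 2 rises.

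Phosphatases and second messenger enzymes were split. Of 76 protein tyrosine and dual-specificity phosphatases 7 fell and 3 rose, against 4 and 2 with averaged probe sets, 6 and 6 without TNC + vehicle replicate 2 and 7 and 5 without untreated replicate 3. Ssh2, which activates the actin-severing protein cofilin, fell by 1.51 ± 0.07, and Ptpn22, a brake on immune receptor signalling, by 1.29 ± 0.09, while Dusp2, a nuclear MAP kinase phosphatase, rose by 1.25 ± 0.10 from 6.97 ± 0.13 (SD, n = 3). Of 92 phosphoinositide enzymes 6 rose and 3 fell (4 and 1 with averaged probe sets). Inpp5d (SHIP1), which removes a phosphate from the PI3-kinase product, read 10.66, 10.68 and 10.71 untreated and 9.91, 9.93 and 9.90 with TNC (-0.77 ± 0.06; limma adjusted p = 2.75e-06), a call lost over the mean of its 2 probe sets (-0.55). In cyclic nucleotide signalling 6 of 104 rose and 8 fell (4 and 4 with averaged probe sets): Pde4b, the cAMP phosphodiesterase, rose by 1.48 ± 0.07 (0.65 over the mean of 6 probe sets) and Gnb4 by 1.07, and Gna12 fell by 0.99.

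In the JAK-STAT pathway 4 of 30 genes rose and 1 fell (median 0.161). The risers were Stat2 (1.91 ± 0.11), which the interferon list also holds, the kinase Jak2 (1.32 ± 0.06) and the feedback inhibitors Socs3 (1.77 ± 0.09) and Socs1 (1.02 ± 0.09), and Socs6 fell by 0.80. Jak2 went from 9.38, 9.38 and 9.30 to 10.65, 10.69 and 10.66 (limma adjusted p = 5.82e-08). Of 38 Notch genes 1 rose and 0 fell in limma, and leaving out any 1 array gave 1 or 2 higher and 0 or 1 lower. At a limma p under 0.05 without adjustment 9 were higher and 12 lower, beside 3236 and 3793 of all 18193 genes. Of 70 Wnt genes 1 rose and 2 fell, or 5 without untreated replicate 2. Jag1, a Notch ligand, rose by 1.20 ± 0.10, the Wnt receptor Fzd1 by 1.51 ± 0.10, and the secreted Wnt inhibitors Dkk2 and Sfrp2 fell by 1.51 ± 0.13 and 1.17 ± 0.14.

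Growth factors fell or did not pass: 7 of 52 were lower (13.5%) and 0 higher in limma. Without adjustment 9 were higher and 15 lower at p under 0.05, beside 3236 and 3793 of all 18193 genes. Gas6, the bridge from dying cells to the TAM receptors, read 11.60, 11.69 and 11.86 untreated and 10.66, 10.46 and 10.55 with TNC (-1.16 ± 0.08; limma adjusted p = 1.09e-06). Thbs1 (thrombospondin 1) fell from 11.69, 11.50 and 11.81 to 10.42, 10.62 and 10.47 (-1.16 ± 0.09; adjusted p = 1.68e-06), and Fgf7, a fibroblast product that acts on epithelium, from 9.78, 9.77 and 9.74 to 8.76, 8.79 and 8.64 (-1.03 ± 0.07; adjusted p = 5.13e-07). No array of 1 group overlapped the other in these 3 genes, which held for 42.3% of all genes. Pros1, Pdgfb and Bmp4 were lower by 0.63, 0.72 and 0.72, and Angptl4, an inhibitor of lipoprotein lipase, by 1.07 (-0.52 over the mean of its 2 probe sets). Some of these transcripts, like Sfrp2 and Dkk2, are typical of stromal cells. None of the 10 fibroblast markers was called, with Col3a1 at -0.47, Dcn at 0.46 and Col1a2 at -0.12, and a list median of 0.159. In bulk RNA, fewer cells of a type and less RNA per cell cannot be told apart. Without TNC + vehicle replicate 1 the count of lower growth factors was 9, without TNC + vehicle replicate 3 it was 6 with 1 higher, and Col3a1 was called at -0.62.

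The transcription factor families read here held calls in both directions, at unlike shares. Leucine zipper factors had 13.2% higher and 13.2% lower, and Zfp genes 0.912% and 2.13%, against 3.74% and 4.05% of all genes. Ets2, an ETS factor, had the largest change, from 8.59, 8.56 and 8.71 to 10.82, 10.85 and 10.80 (2.20 ± 0.07; limma adjusted p = 2.5e-09; 1.25 over the mean of 3 probe sets), among 3 rises and 5 falls in 52 ETS, Klf, Egr and Runx genes. Klf11, Klf10, Klf9 and Klf2 were all lower, by 1.01, 0.92, 0.91 and 0.66, and Klf7 was higher by 0.88. The ETS factor Etv6, a repressor, rose by 1.01 ± 0.07.

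Among 38 leucine zipper factors 5 rose and 5 fell (13.2% each; 6 and 2 after cyclic loess or with averaged probe sets). Of this list 52.6% lay at 9 or above untreated, where 10.9% to 13.3% of all genes fell. The AP-1 members Batf2 and Batf rose by 1.41 ± 0.09 and 1.11 ± 0.08 and Junb by 0.76, while Jun fell by 0.61, and the small Maf proteins Maff and Mafk rose by 0.74 and 0.63. Cebpa, a factor of myeloid differentiation, fell from 10.00, 9.91 and 9.95 to 9.09, 8.83 and 8.90 (-1.02 ± 0.08; limma adjusted p = 1.88e-06). Dbp fell by 1.17 ± 0.12 and its relative Tef by 0.62. In 53 nuclear receptors and cofactors 4 rose and 6 fell (2 and 3 with averaged probe sets): Nr1h3 (LXR alpha) rose from 7.45 ± 0.10 to 8.48 ± 0.14 (means ± SD, n = 3; limma difference 1.04 ± 0.08; adjusted p = 3.09e-06), while its partner Rxra was lower by 0.59, Nr1d2 by 0.97, Pparg by 0.91 and Nr2c2 by 0.86, a call lost with averaged probe sets (-0.41).

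Of 119 histone and DNA modifying genes 3 rose and 6 fell (2.52% and 5.04%; 1 and 4 with averaged probe sets). Setdb2, an interferon-responsive histone methyltransferase, rose by 1.29 ± 0.08. Kmt5a, also a histone methyltransferase, rose by 1.09 (0.49 with averaged probe sets, where its call was lost). Setd7 fell by 0.97 ± 0.08 (-0.56 over the mean of its 2 probe sets), the demethylase Kdm2b by 0.96 ± 0.07, and the deacetylases Sirt3 and Hdac5 by 0.89 and 0.83. In the 329 genes named Zfp, 3 rose and 7 fell (0.912% and 2.13%; 2 and 3 with averaged probe sets), and the list median was -0.105. At an unadjusted p under 0.05, 24 were higher and 123 lower, against 3236 and 3793 of all 18193 genes. This shift of small falls across many genes was at -0.107 with array medians centred and -0.096 after cyclic loess, and 6.99% of the list lay at 9 or above in untreated cells. Zfp800 rose by 1.36 ± 0.09 and Zfp131 by 0.98 ± 0.07.

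Of 67 genes for sphingolipids and phospholipids 7 rose and 10 fell (10.4% and 14.9%; 5 and 6 with averaged probe sets; 58.2% of the list at 9 or above untreated). Cers6, a ceramide synthase for shorter acyl chains, rose from 9.84, 9.71 and 9.80 to 11.42, 11.51 and 11.31 (1.63 ± 0.07; limma adjusted p = 3.45e-08). Smpdl3b, a membrane-anchored phosphodiesterase known to restrain TLR signalling, rose from 8.07, 8.19 and 7.91 to 9.51, 9.88 and 9.94 (1.72 ± 0.11; adjusted p = 4.54e-07). Pla2g4a, the phospholipase that releases arachidonate, rose by 1.24 and Lpcat2, which makes platelet-activating factor, by 1.14. The ethanolamine kinase Etnk1 was higher by 1.48 and the ceramidase Asah2 by 0.89. The lower sphingolipid enzymes included the ceramide kinase Cerk at -1.22, the sphingosine 1-phosphate phosphatase Sgpp1 at -1.10 and Sptssa, a subunit of serine palmitoyltransferase at the start of the pathway, at -0.96. Pla2g15, the lysosomal phospholipase, fell from 11.23, 11.12 and 11.26 to 9.84, 9.94 and 9.89 (-1.31 ± 0.07; adjusted p = 9.47e-08). Within each group of these genes the arrays lay closer together than the groups did.

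In fatty acid metabolism 8 of 72 genes rose and 8 fell (11.1% each; 45.8% of the list at 9 or above untreated), with a list median of -0.114. Genes that build or bind fatty acids were among the rises, with Fasn, the fatty acid synthase, at 0.96 ± 0.10, Fads2 at 0.76 and Scd2 at 0.67, desaturases, and Acsl5 at 0.87. Fabp3, a fatty acid-binding protein, read 7.66, 7.80 and 7.96 untreated and 9.72, 9.01 and 9.05 with TNC (1.45 ± 0.16; limma adjusted p = 3.55e-05), with replicate 1 highest and a difference of 1.22 without it, and 0.71 over the mean of its 2 probe sets. Related genes also moved apart, with Acss2 higher by 0.64 and Acss1 lower by 0.93. Acot7 was higher by 0.62, and Acot1 and Acot2 were lower by 0.77 and 0.78. Genes of oxidation and storage were among the falls. Hadh, of mitochondrial beta-oxidation, fell from 11.15, 11.11 and 11.07 to 10.18, 9.91 and 9.98 (-1.09 ± 0.08; adjusted p = 1.21e-06; -0.59 over the mean of 3 probe sets), Acaa2 was lower by 0.64, and the lipid droplet coat genes Plin3 and Plin2 by 0.77 and 0.76.

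Sugar chains on the cell surface are built by glycosyltransferases. Of 148 such enzymes and glycan trimming enzymes 8 fell and 3 rose (5.4% and 2.0%; list median 0.014). These shares were near the 4.05% lower and 3.74% higher of all genes, though the largest falls reached further than the rises. St6gal1, which caps N-glycans with sialic acid, fell from 10.55, 10.51 and 10.56 to 8.51, 8.08 and 8.28 (-2.25 ± 0.10; limma adjusted p = 2.49e-08). St8sia4, which builds polysialic acid, fell from 12.40, 12.44 and 12.43 to 11.04, 10.83 and 10.84 (-1.52 ± 0.07; adjusted p = 6.04e-08). Gcnt1, which starts branches on mucin-type O-glycans, fell by 1.58 ± 0.12, B3gnt8, which extends branched N-glycans, by 1.41 ± 0.08, and the Golgi mannosidases Man1c1 and Man2a2 by 1.40 and 1.17. The risers were Mgat4a (1.06), an N-glycan branching enzyme, St3gal1 (0.81), a sialyltransferase of O-glycans, and Chst10 (0.75), a sulfotransferase.

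Of 60 genes for nucleotide synthesis and salvage 4 rose and 5 fell (6.67% and 8.33%). Nt5c3, a cytosolic nucleotidase, rose from 8.87, 9.26 and 9.13 to 11.05, 11.26 and 11.31 (2.12 ± 0.10; limma adjusted p = 5.29e-08; 1.03 over the mean of 2 probe sets). In purine salvage, Pnp rose from 11.62, 11.72 and 11.73 to 13.01, 13.20 and 13.16 (1.43 ± 0.07; adjusted p = 8.79e-08), and the adenosine deaminase Ada fell from 9.74, 9.70 and 9.69 to 8.84, 8.50 and 8.50 (-1.10 ± 0.09; adjusted p = 3.44e-06). Pnp and Ada, which work in sequence in purine salvage, thus moved in opposite directions. Adss, of adenylate synthesis, was lower by 1.06 and the deoxycytidine kinase Dck higher by 0.96.

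In NAD and tryptophan metabolism 2 of 30 genes rose and 2 fell (2 and 0 with averaged probe sets). Nampt, the rate-limiting enzyme of NAD salvage, rose from 9.87, 10.02 and 9.97 to 11.28, 11.46 and 11.47 (1.45 ± 0.08; limma adjusted p = 9.99e-08), and Bst1, an ectoenzyme that splits NAD, by 1.33 ± 0.10, with Nnt and Nadk2 lower by 0.74 and 0.68, calls lost when probe sets were averaged (-0.38 and -0.40). Of 35 genes for serine, glycine and folate-bound carbon 1 was called, the mitochondrial Mthfd2, from 8.23, 7.94 and 8.21 to 9.62, 9.92 and 9.82 (1.66 ± 0.10; adjusted p = 2.31e-07). The groups did not overlap in Nampt or Mthfd2, which held for 42.3% of all genes.

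Membrane traffic genes were called at shares near those of all genes, 3.74% higher and 4.05% lower. Of 110 Rab GTPases, effectors and TBC domain proteins 3 rose and 6 fell (2.7% and 5.5%), or 3 and 2 with averaged probe sets. Rab20, which acts on phagosomes and is known to respond to interferon, rose from 7.83, 7.61 and 7.81 to 9.23, 9.42 and 9.42 (1.61 ± 0.08; limma adjusted p = 9.08e-08), Rab32 rose by 0.80, and Rab11fip5, an effector of recycling endosomes, fell by 1.16 ± 0.07. Of 69 SNARE and fusion genes 2 rose and 2 fell (2.9% each). The largest change was in Stx11, a syntaxin of cytotoxic and phagocytic cells, from 7.60, 7.39 and 7.32 to 9.15, 9.44 and 9.26 (1.85 ± 0.09; limma adjusted p = 8.04e-08). Vamp5 rose by 0.77 and Sec22c and Stx17 fell by 0.68 and 0.60, and these 3 calls were lost with averaged probe sets (0.50, -0.38 and -0.33).

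In the actin cytoskeleton 6 of 145 genes rose and 8 fell (6 and 5 with averaged probe sets). Marcksl1, which ties actin to the membrane, rose from 11.26, 11.20 and 11.25 to 13.42, 13.63 and 13.61 (2.31 ± 0.07; limma adjusted p = 2.82e-09), and the formin Fmnl2 from 8.32, 8.05 and 8.48 to 9.98, 9.99 and 10.00 (1.70 ± 0.10; adjusted p = 1.65e-07). Pdlim2, which is known to end NF-kB signalling, fell by 1.02 ± 0.08, the vesicle motor Myo5a by 0.83 ± 0.09, and the smooth muscle-type genes Tpm2 and Myl9 by 0.74 and 0.65. Among 126 tubulins, kinesins, dyneins and their partners 6 fell and 0 rose (4.76% lower; 2 fell with averaged probe sets). In limma 16 were higher and 36 lower at p under 0.05 without adjustment, beside 3236 and 3793 of all 18193 genes. Klc4, a kinesin light chain, fell from 9.42, 9.40 and 9.43 to 8.27, 8.05 and 8.17 (-1.25 ± 0.07; adjusted p = 2.01e-07).

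Genes of the machinery that makes proteins mostly changed by small amounts. Of 50 ribosomal protein genes 0 were called by limma. At an unadjusted p under 0.05, 0 were higher and 14 lower, beside 3236 and 3793 of all 18193 genes. The list ran from -0.43, in the paralogue Rpl22l1, to 0.08, with a median of -0.077, or -0.007 after cyclic loess, which moved the median of all genes from 0.006 to 0.016. Ribosome biogenesis went the other way: 41 of 75 genes were higher at an unadjusted p under 0.05 and 8 lower, at a median of 0.186 (0.201 after cyclic loess, 0.169 with averaged probe sets), though 2 rose and 1 fell by the full rule. Rrs1, an assembly factor of the large subunit, rose by 0.78 ± 0.07, Ltv1, of the small subunit, by 0.59, a call that ended without untreated replicate 3, TNC + vehicle replicate 2 or TNC + vehicle replicate 3, and Nop53 fell by 0.74 (-0.48 with averaged probe sets). In translation factors 6 of 109 rose and 2 fell. Larp1, which controls the mRNAs of ribosomal proteins, rose from 9.45, 9.37 and 9.58 to 10.69, 10.71 and 10.80 (1.27 ± 0.07; limma adjusted p = 2.06e-07), and the elongation factor kinase Eef2k fell by 1.14 ± 0.09.

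Of 49 proteasome genes 7 rose and 0 fell (14.3% higher; median 0.278, and 0.355 after cyclic loess). At a limma p under 0.05 without adjustment 34 were higher and 1 lower, beside 3236 and 3793 of all 18193 genes. The immunoproteasome subunits Psmb10, Psmb9 and Psmb8 rose by 1.33, 1.04 and 0.90 and the activator Psme1 by 0.72, and these 4 are also members of the interferon list. Outside it 3 of 45 rose, Psmd10 (0.95 ± 0.06), Psma6 (0.66) and Psma5 (0.61), at a median of 0.243. The list was bright, with 79.6% at 9 or above untreated. Of 297 genes for adding and removing ubiquitin 17 rose and 14 fell (5.72% and 4.71%). Peli1, a ligase of TLR signalling, rose from 10.02, 10.14 and 10.03 to 11.41, 11.63 and 11.51 (1.45 ± 0.07; limma adjusted p = 8.92e-08), while its relative Peli2 was lower by 1.17. Usp18, of the interferon list, rose by 2.12, Rnf213 rose by 1.47 ± 0.08 (0.78 over the mean of 2 probe sets), the apoptosis inhibitors Birc3 and Birc2 were higher by 0.96 and 0.93, and Wwp1 was lower by 1.39. Chaperones had 2 of 98 higher and 3 lower (1 and 2 with averaged probe sets), led by Dnajc9 at -0.79.

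In the mitochondrial respiratory chain 1 of 92 subunits rose, cytochrome c (Cycs, 0.78 ± 0.07), and 1 fell, Ndufa6 (-0.65 ± 0.09), which lay below the threshold without untreated replicate 1 or after cyclic loess (both -0.58). The list median was -0.070, and -0.008 after cyclic loess. Of the list 81.5% lay at 9 or above in untreated cells, where 10.9% to 13.3% of all genes fell. Splicing factors had 2 of 126 higher and 3 lower (1 and 1 with averaged probe sets, 4 and 2 after cyclic loess), Prpf38a (0.98; 0.31 with averaged probe sets) and Rbm43 (0.78) among the rises and Clk1 (-0.76), Mbnl3 (-0.68) and Mbnl1 (-0.61) among the falls.

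The p53 and growth arrest list held the largest share of calls, with 6 of 51 higher and 11 lower (11.8% and 21.6%; 52.9% of the list at 9 or above untreated). Cdkn1a (p21), the inhibitor of cyclin-dependent kinases, rose from 10.89, 10.96 and 10.95 to 12.33, 12.37 and 12.35 (1.42 ± 0.06; limma adjusted p = 3.16e-08), and Gadd45b, a stress sensor induced by NF-kB, from 9.03, 9.18 and 8.97 to 10.46, 10.57 and 10.49 (1.45 ± 0.07; adjusted p = 8.96e-08). The related inhibitors Cdkn1b (p27) and Cdkn2c (p18) were lower by 0.87 and 0.77, so that members with the same role moved apart. Trp53inp1, a p53 target, fell from 10.71, 10.72 and 10.87 to 9.52, 9.39 and 9.20 (-1.40 ± 0.09; adjusted p = 3.81e-07). The p53 targets Sesn1 and Zmat3 were lower by 0.69 and 0.68, and Fas and Aen higher by 1.25 and 0.72. In the Max network, Mxd4 fell by 1.42 ± 0.07 (-0.93 over the mean of 4 probe sets) and Mxi1 by 0.94, and Max itself was higher by 0.73. Of the pocket proteins, Rbl1 (p107) was higher by 1.10 and Rbl2 (p130) lower by 0.89. Of DNA repair genes 0 of 117 were called higher and 5 lower (4.27%; 3 with averaged probe sets), and Chek2 was the largest at -0.72 ± 0.11. In limma 21 were higher and 37 lower at p under 0.05 without adjustment, beside 3236 and 3793 of all 18193 genes.

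Genes with only a predicted or clone name had 18 of 1811 members called higher and 20 lower (0.994% and 1.10%; 17 and 13 with averaged probe sets), and 3.37% of them lay at 9 or above untreated. AW112010, which the interferon list also holds, read 8.99, 9.33 and 8.95 untreated and 12.92, 12.91 and 12.83 with TNC, 13.9-fold higher (limma adjusted p = 6.06e-10). Gm4951, G530011O06Rik and Gm9706 rose by 2.19 ± 0.10, 2.09 ± 0.12 and 2.03 ± 0.14. Probe sets without any gene name were called higher in 97 and lower in 93 cases, 1.06% and 1.02%. Of 14 genes for microRNAs or their host transcripts 1 was called, Mir155hg, the host of miR-155, a microRNA of activated macrophages, and it is named after its values were seen. It read 5.93, 6.03 and 5.95 untreated and 6.59, 6.87 and 6.52 with TNC (0.69 ± 0.09; adjusted p = 0.000134), all near the floor, where a change is understated. The arrays measure the host transcript and not the mature microRNA, whose RefSeq sequence (GRCm38.p6, plus strand, chr16:84714143-84714165) is given with its seed, bases 2 to 8, in capitals.
mmu-miR-155-5p: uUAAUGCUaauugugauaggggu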

How the data were processed

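Total RNA from 9 samples was hybridised to Affymetrix mouse whole-genome arrays, and the 6 arrays of untreated and TNC + vehicle macrophages were compared. The authors normalised the arrays by RMA in Chipster and deposited log2 signals, which run from 5.44 to 14.69. RMA fits all arrays together and compresses changes near its floor. No reads are counted, and the number of arrays limits the precision. Of 45101 probe sets 64 controls were left out. A platform annotation gave 1 gene to 34945 probe sets, several to 932 and none to 9160. The brightest probe set over the 9 arrays stood for each of 18193 genes, 9010 of which had more than 1.

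The groups were compared with limma 3.58.1 (R 4.3.3; lmFit and eBayes, 6 arrays, 2 group means). P-values were adjusted by Benjamini-Hochberg over 45037 probe sets, with calls made under 0.05 where the change was also at least 1.5-fold. The fit was tested on simulated data. The members of the lists, and the lists themselves, were chosen with earlier results of these data known. Named genes were drawn from the 20 largest rises and 20 largest falls without overlap outside the cytokine, chemokine and interferon lists, the 4 called members with the largest change of each function list (or its largest change where none was called), genes with probe sets called in opposite directions, Tnf, Il1b, Il6, Nos2, Tlr4 and Tnc, and the cell type markers. The result of 1 of the 42 function lists is not reported here. Some function lists were drawn by the start of gene symbols and hold a few related or effector genes. No 2 arrays held identical values. Other scalings, filters, thresholds and probe set rules, array weights, a replicate block and leaving out each array were tried.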

Additional observations from a re-analysis of the deposited data

How the results depend on the processing

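The 680 higher and 736 lower genes became 2201 and 2915 with no minimum fold, 339 and 179 with a minimum of 2-fold, and 397 and 252 when limma's treat tested against 1.5-fold. Averaging all probe sets of each gene gave 578 and 483, of which 564 and 473 were among the calls on the brightest probe set, and cyclic loess gave 731 and 651. Centred array medians, array weights, trend and robust settings, a stricter adjusted p, dim probe sets left out and a fit over all 9 arrays kept both counts within 1.5 times. Leaving out 1 array gave 666 to 714 higher and 690 to 829 lower genes, the highest without TNC + vehicle replicate 1. Of 4871 values of the 273 named genes under 18 settings, 131 fell below the threshold and 23 passed it, no called value changed sign, though small values of genes not called did, and 249 of 1512 list counts moved by over 1.5 times. The cause of these moves was not tested.

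With the replicate number as a block, 680 genes were higher and 736 lower. A block leaves the log2 differences of equal groups unchanged, and few calls hung on p (676 and 733 at adjusted p under 0.01 in limma). The count therefore cannot show whether arrays were paired. Deviations from the group means correlated at 0.087, -0.062 and -0.054 between arrays of the same number and at -0.06 to 0.102 between others. The numbers thus gave no sign of pairing, which 3 arrays per group cannot exclude. Signals near the floor limit what can be said of genes low in both groups.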

Other observations

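Mmd, a membrane protein of maturing macrophages, was the only gene of 517 with 2 or more called probe sets whose probe sets were called in opposite directions. Its brighter probe set read 10.00, 9.98 and 9.84 untreated and 9.10, 9.15 and 9.05 with TNC (log2 change -0.84 ± 0.07 SE; limma adjusted p = 3.92e-06). Its dimmer probe set read 7.27, 7.25 and 7.26 untreated and 8.00, 7.98 and 8.05 with TNC (0.75 ± 0.06; adjusted p = 3.66e-06). The groups overlapped in neither, and 42.3% of all genes showed no overlap. Which transcripts the 2 probe sets read was not tested.

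Among the markers of other cell types 4 genes were called, each the only one of its list. Kdr, the VEGF receptor of endothelium, read 7.75 ± 0.11 (SD, n = 3) untreated and 9.39 ± 0.34 (n = 3) with TNC, a rise of 1.63, and it was lowest with TNC in replicate 1, the array in which most other endothelial markers were highest. Klrk1, the NKG2D receptor of NK cells, rose by 2.06, from 6.88, 6.97 and 6.88 to 8.69, 9.16 and 9.08. Hdc, the histidine decarboxylase of mast cells and basophils, rose by 0.98, and Ighm, the heavy chain of B cell IgM, fell by 1.05 (-0.14 with averaged probe sets, where its call was lost). Tnc itself read 8.47, 7.98 and 8.29 untreated and 9.58, 8.36 and 8.43 with TNC, where replicate 1 stood above the other arrays. Msr1, a scavenger receptor of macrophages, rose by 2.09, from 10.03, 9.82 and 9.75 to 11.85, 12.03 and 11.97 (limma adjusted p = 1.7e-08).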
